A study of Homo sapiens with 6 samples.

Results

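The 48 genes described here belong to the amino acid arm of the integrated stress response: the transcription factor ATF4, genes known as its targets in amino acid synthesis, uptake and feedback, and 13 cytosolic aminoacyl-tRNA synthetases with the tRNA exporter XPOT. They were chosen by name, with earlier results of these data known. All 48 were found by gene symbol among the 58735 named genes of the deposited table, the synthetases under older symbols such as AARS and CARS. RNA with poly(A) tails had been sequenced from LS174T, a human colorectal adenocarcinoma line with goblet-like character, in 6 libraries. Of these, 3 carry the genotype label WT and 3 the label of a FXYD3 knockout, in the same line and with no treatment named for either group. The sources used here do not describe the edit, the number of clones behind the knockout label or whether a group's libraries came from cultures grown apart. The p-values therefore set the difference between groups only against the spread of these libraries, and that spread may be technical.

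ATF4 is controlled mainly by translation. When amino acids run short, when unfolded proteins collect in the endoplasmic reticulum or when other stresses act, kinases phosphorylate the initiation factor eIF2, general translation slows and the ATF4 message is translated more. ATF4 protein then pairs with other basic leucine zipper factors, among them C/EBP proteins, and binds composite C/EBP-ATF elements in genes for amino acid synthesis, amino acid import and tRNA charging, the step in which a synthetase joins an amino acid to its tRNA. In secretory epithelia such as goblet cells this programme lies close to the unfolded protein response.

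The composite element occurs in the promoters of some members. The sequence TGATGNAA was searched on both strands from 250 bases before to 50 bases after each gene's start in RefSeq (GRCh38.p14), a window of 300 bases. RefSeq promoters were at hand for 38 members, and 12 of them held the element (31.6%), against 1003 of 27305 promoters of all genes (3.67%) and 184 of 10416 promoters of the genes tested here (1.77%). The shorter core TGATG, which lies inside the element, was found in 42.1% of member promoters, 33.4% of all promoters and 20.9% of those of the genes tested. CCACG, the half-site of the ER stress element, was found in 68.4%, 37.9% and 49.6%. A match describes letters in a window and is not a measured binding site. The 12 stretches of 30 bases are shown because this is the element ATF4 is known to bind; each reads 5′ to 3′ on the gene's strand, and capitals mark the element, which appears as its reverse complement where it lies on the other strand.
AARS: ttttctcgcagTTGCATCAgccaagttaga
ASNS: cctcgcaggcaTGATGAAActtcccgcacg
CARS: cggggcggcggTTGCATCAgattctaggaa
CHAC1: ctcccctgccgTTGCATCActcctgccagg
FGF21: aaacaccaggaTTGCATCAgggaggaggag
IARS: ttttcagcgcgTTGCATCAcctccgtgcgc
MARS: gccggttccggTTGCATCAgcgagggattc
NARS: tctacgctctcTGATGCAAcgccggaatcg
SLC38A1: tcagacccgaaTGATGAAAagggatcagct
SLC3A2: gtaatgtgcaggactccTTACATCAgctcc
SLC7A1: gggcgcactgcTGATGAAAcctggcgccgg
TARS: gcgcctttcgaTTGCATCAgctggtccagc

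On GRCh38.p14 these stretches lie at chr16:70289675-70289704 (minus strand) for AARS, chr11:3057407-3057436 (minus) for CARS, chr9:92293692-92293721 (minus) for IARS, chr12:57488053-57488082 (plus) for MARS, chr18:57621804-57621833 (minus) for NARS and chr5:33440956-33440985 (plus) for TARS. Those of the transporter genes lie at chr12:46266502-46266531 (minus) for SLC38A1, chr11:62881719-62881748 (plus) for SLC3A2 and chr13:29595663-29595692 (minus) for SLC7A1, and that of FGF21 at chr19:48755459-48755488 (plus). In 7 genes (CARS, IARS, MARS, NARS, SLC38A1, SLC7A1 and TARS) the element began within 15 bases of the annotated start. It began 38 bases after the start in SLC3A2 and 54, 68, 187 and 209 bases before it in FGF21, ASNS, AARS and CHAC1. The 250 bases before the start are given for ASNS (chr7:97872409-97872658, minus strand) and CHAC1 (chr15:40953221-40953470, plus strand), the best-known target of this element and the tested carrier of it with the lowest fold change; each includes the gene's shorter stretch.
ASNS: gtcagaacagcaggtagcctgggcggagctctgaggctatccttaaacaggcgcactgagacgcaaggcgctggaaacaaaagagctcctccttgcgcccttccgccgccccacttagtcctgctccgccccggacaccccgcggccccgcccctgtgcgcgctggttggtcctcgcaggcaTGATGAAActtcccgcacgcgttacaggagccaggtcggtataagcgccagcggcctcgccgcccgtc
CHAC1: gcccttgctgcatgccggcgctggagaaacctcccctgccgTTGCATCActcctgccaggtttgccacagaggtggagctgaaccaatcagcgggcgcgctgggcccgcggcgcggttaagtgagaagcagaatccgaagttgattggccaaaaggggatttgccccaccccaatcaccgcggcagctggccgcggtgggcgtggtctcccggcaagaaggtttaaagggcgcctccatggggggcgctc

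The element occurred in members that were called and in members that were not. It was present in 5 of the 19 members with a promoter that were lower in the knockout-labelled libraries (AARS, CARS, CHAC1, MARS and SLC3A2), in 0 of 2 that were higher, and in 7 of 17 that were not called or, for FGF21, not tested. Among all genes with a promoter it was present in 27 of 1439 called lower (1.88%) and in 23 of 1280 called higher (1.80%).

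Named genes received 15417232 to 19453217 counts per library. The targeted gene did not check the labels: FXYD3, a small membrane protein that associates with the sodium pump, received 54, 91 and 55 reads in wild type and 79, 131 and 85 reads under the knockout label (log2 fold change 0.54, SE 0.20, edgeR adjusted p = 0.0522). It was not lower there, and it passed as higher in 5 of 17 alternative settings, with the smallest adjusted p on leaving out wild-type library 2 (0.79, adjusted p = 0.00313). Every direction given here compares libraries by their label. All 8 colon epithelial markers passed the filter on low counts; CDX1 (-0.67, adjusted p = 6.48e-09) and CDH1 (-0.36, adjusted p = 0.00127) were lower and 0 were higher. Of 10 goblet cell markers 8 were tested, 7 were lower and 0 higher. By the same test 12.4% of all genes tested were lower and 12.0% higher. The summed level of the goblet markers was 939 to 1082 CPM (CPM are counts scaled to a common library size) in wild type and 546 to 592 CPM in the knockout-labelled libraries. The 6 fibroblast markers summed to 1.29 to 2.11 CPM and 6.49 to 8.29 CPM, of which COL3A1 made up 5.18 to 6.09 CPM in the knockout-labelled libraries, with COL1A2 at 0 in all 6 libraries. The 5 immune markers summed to 31.4 to 34.1 and 32.4 to 33.4 CPM, nearly all from LYZ with PTPRC and CD3E at 0, and the 3 endothelial markers to at most 0.298 CPM with PECAM1 at 0. The goblet and fibroblast sums and these 2 epithelial markers moved with the labels, and their part in the results that follow was not tested. In bulk libraries fewer cells expressing a gene and less RNA per cell cannot be told apart.

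Most of the programme was lower in the knockout-labelled libraries, by modest amounts. Of 47 members that passed the filter, 26 fell (55.3%), 2 rose (4.26%) and 19 did not pass the test, which was edgeR's quasi-likelihood test with p-values adjusted over all 15351 genes tested and a threshold of 0.05. Over all genes tested, 24.3% were called, 12.4% lower and 12.0% higher. The members' median log2 fold change, knockout-labelled over wild type, was -0.23, against 0.00 for all genes tested. In 30 members (63.8%) every knockout-labelled library lay below every wild-type library, which held for 18.6% of all genes, and in 3 members (6.38%) every one lay above, which also held for 18.6% of all genes.

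The members' summed level was 11123 to 11595 CPM in wild type and 9323 to 9596 CPM in the knockout-labelled libraries, a fall of 16.7% in the mean. Leaving aside CBS, which is close to the detection limit, the 26 lower members changed by between -0.99 and -0.20 on the log2 scale. The 2 higher members, SESN3 and CTH, were further from 0 than any of these, at 3.23 and 1.69. When the test asked for a change of more than 1.5-fold, 5 members passed: NUPR1, CHAC1 and DDIT4 lower, SESN3 and CTH higher. Of all 15351 genes, that stricter test called 418 lower and 377 higher.

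**Figure D1:**
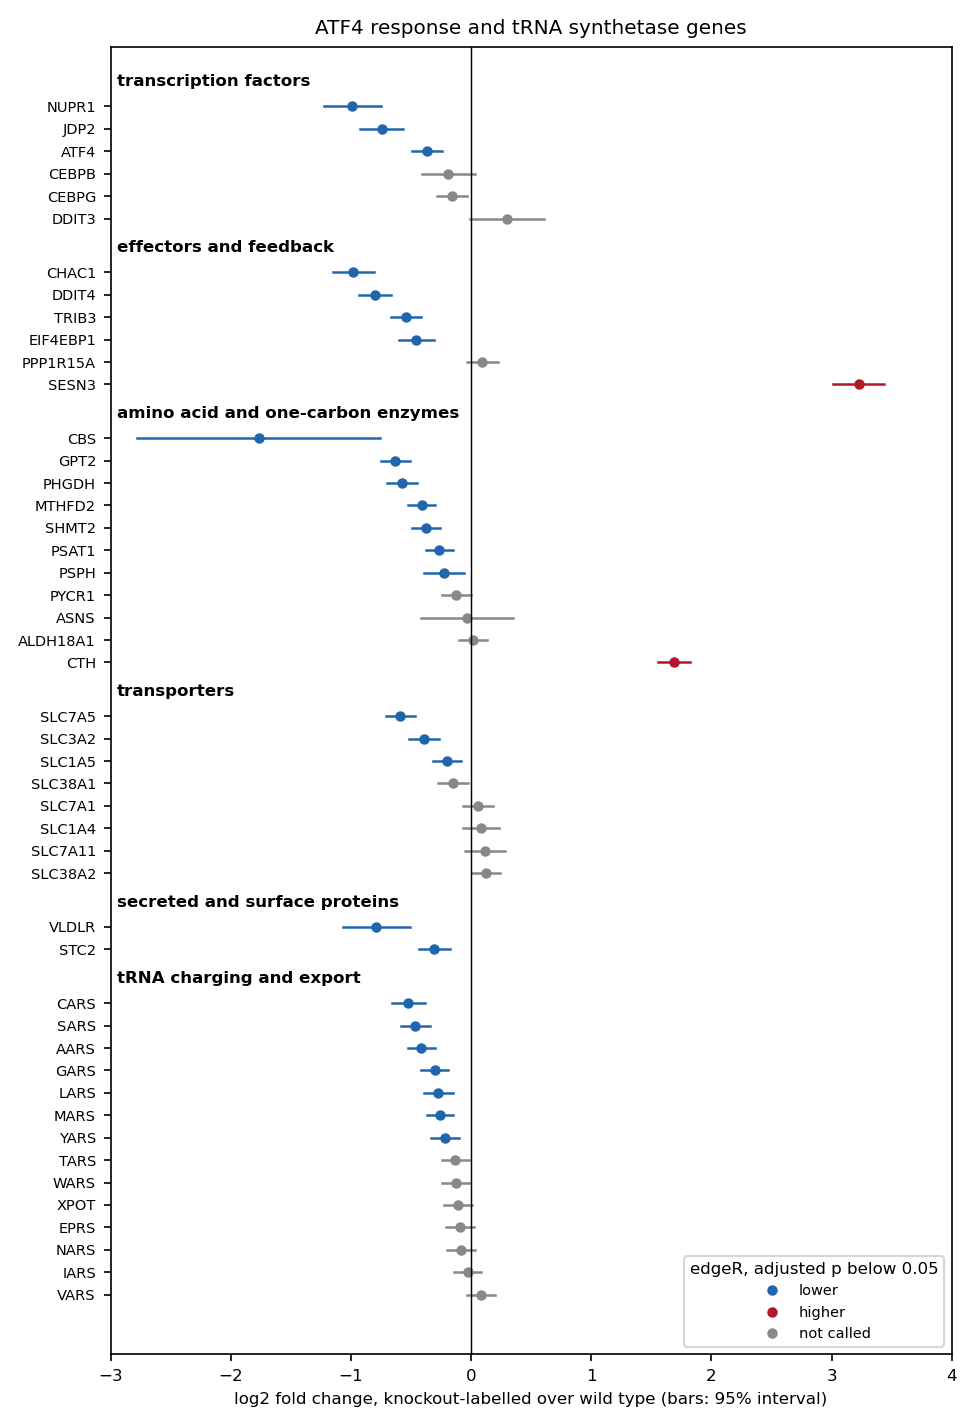
The 47 members tested are plotted by role along the vertical axis, with the log2 fold change of knockout-labelled over wild type on the horizontal axis; points are estimates, bars are 95% intervals, and colours give the call. Most points lie a little to the left of 0, and SESN3 and CTH stand far to the right.

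Among the 6 transcription factors, 3 were lower, 0 were higher and 3 did not pass the test (all genes tested: 12.4% lower, 12.0% higher). ATF4 itself (ENSG00000128272, chromosome 22, 39519695 to 39522685, plus strand on GRCh38) had 563, 524 and 599 CPM in the wild-type libraries and 462, 428 and 419 CPM in those labelled knockout. The groups did not overlap, and the mean fell by 22.4% (log2 fold change -0.37, SE 0.06, edgeR adjusted p = 4.53e-05). These are levels of its message; translation, the step at which ATF4 is mainly controlled, was not measured.

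NUPR1 (ENSG00000176046, chromosome 16, 28532708 to 28539174, minus strand), a small stress-induced chromatin protein, had 108, 90.1 and 129.97 CPM in wild type and 55.3, 55.1 and 54.8 CPM under the knockout label. All 3 knockout-labelled values were nearly the same and lay well under the lowest wild-type value, and the mean fell by 49.7% (log2 fold change -0.99, SE 0.11, edgeR adjusted p = 2.28e-05). JDP2, a basic leucine zipper repressor of the AP-1 family, had 48.2, 44.0 and 53.9 CPM in wild type against 32.2, 27.9 and 27.2 CPM in the libraries labelled knockout (log2 fold change -0.74, SE 0.09, edgeR adjusted p = 2.13e-07). Its groups did not overlap either.

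The C/EBP genes did not pass the test. CEBPG, a C/EBP protein that dimerizes with ATF4, had 102, 104 and 103 CPM in the wild-type libraries and 94.5, 90.9 and 91.3 CPM in those labelled knockout, with every knockout-labelled library below every wild-type one but an adjusted p just over the threshold (log2 fold change -0.16, SE 0.06, edgeR adjusted p = 0.0509). CEBPB had a log2 fold change of -0.19 (SE 0.10, adjusted p = 0.214), and it passed without wild-type library 2 (-0.31, adjusted p = 0.00197). Its coding sequence overlaps the antisense gene CEBPB-AS1 over 231 bases.

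DDIT3 encodes CHOP, a C/EBP-family factor of prolonged stress. It was scarce, with 6.02, 6.63 and 6.95 CPM in wild type and 9.31, 7.52 and 7.33 CPM under the knockout label. Here all 3 knockout-labelled libraries lay above all wild-type ones, yet the difference did not pass the test (log2 fold change 0.30, SE 0.15, edgeR adjusted p = 0.160). DDIT3 shares 355 exon bases with MARS on the opposite strand, and 193 of its 576 coding bases (33.5%) overlap genes of that strand; the counter's strand setting is not given in the sources used here, so their reads cannot be told apart.

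Of the 6 effectors and feedback genes, 4 were lower, SESN3 was higher and PPP1R15A did not pass (all genes tested: 12.4% lower, 12.0% higher). CHAC1 (ENSG00000128965, chromosome 15, 40952962 to 40956519, plus strand), an enzyme that breaks down glutathione, had 48.1, 51.8 and 58.1 CPM in wild type against 27.8, 26.7 and 25.6 CPM in the libraries labelled knockout. The groups were far apart and the mean fell by 49.4% (log2 fold change -0.98, SE 0.08, edgeR adjusted p = 4.60e-10). TRIB3, a pseudokinase that ATF4 induces and that dampens ATF4, had 306, 301 and 331 CPM in the wild-type libraries and 229.9, 212 and 203 CPM in those labelled knockout, a fall of 31.3% in the mean (log2 fold change -0.54, SE 0.06, edgeR adjusted p = 5.74e-08).

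DDIT4 and EIF4EBP1, which act in the mTORC1 branch of growth control, fell. DDIT4, which restrains mTORC1 under stress, had 118, 117 and 126 CPM in wild type and 65.7, 73.0 and 68.4 CPM under the knockout label, again with no overlap (log2 fold change -0.80, SE 0.06, edgeR adjusted p = 1.19e-10). EIF4EBP1, the repressor of cap-dependent translation that mTORC1 inactivates, had 143, 131 and 165 CPM in wild type against 104, 112 and 103 CPM in the libraries labelled knockout (log2 fold change -0.46, SE 0.07, edgeR adjusted p = 2.34e-05). The knockout-labelled values of EIF4EBP1 were all below the wild-type ones. DDIT4 shares 847 exon bases with DDIT4-AS1 on the opposite strand, a gene with 0 counts in all 6 libraries.

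SESN3 (ENSG00000149212, chromosome 11, 95165513 to 95232541, minus strand), a sestrin that also restrains mTORC1, went the other way. It had 5.50, 7.47 and 7.27 CPM in the wild-type libraries and 61.0, 61.0 and 67.7 CPM in those labelled knockout. That is a 9.37-fold rise of the mean, from the second lowest wild-type level per length among the members tested (log2 fold change 3.23, SE 0.10, edgeR adjusted p = 5.97e-19). Its antisense neighbour AP000787.1, which shares 93 exon bases, had at most 27 counts in any library against 943 to 1193 counts for SESN3 in the knockout-labelled ones.

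PPP1R15A, also called GADD34, guides the phosphatase that removes phosphate from eIF2 and so closes the feedback loop. It had 114 ± 5.29 CPM in wild type against 122 ± 6.91 CPM in the libraries labelled knockout (mean ± SD, n = 3 each; log2 fold change 0.10, SE 0.06, edgeR adjusted p = 0.284). Its groups overlapped.

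**Figure D2:**
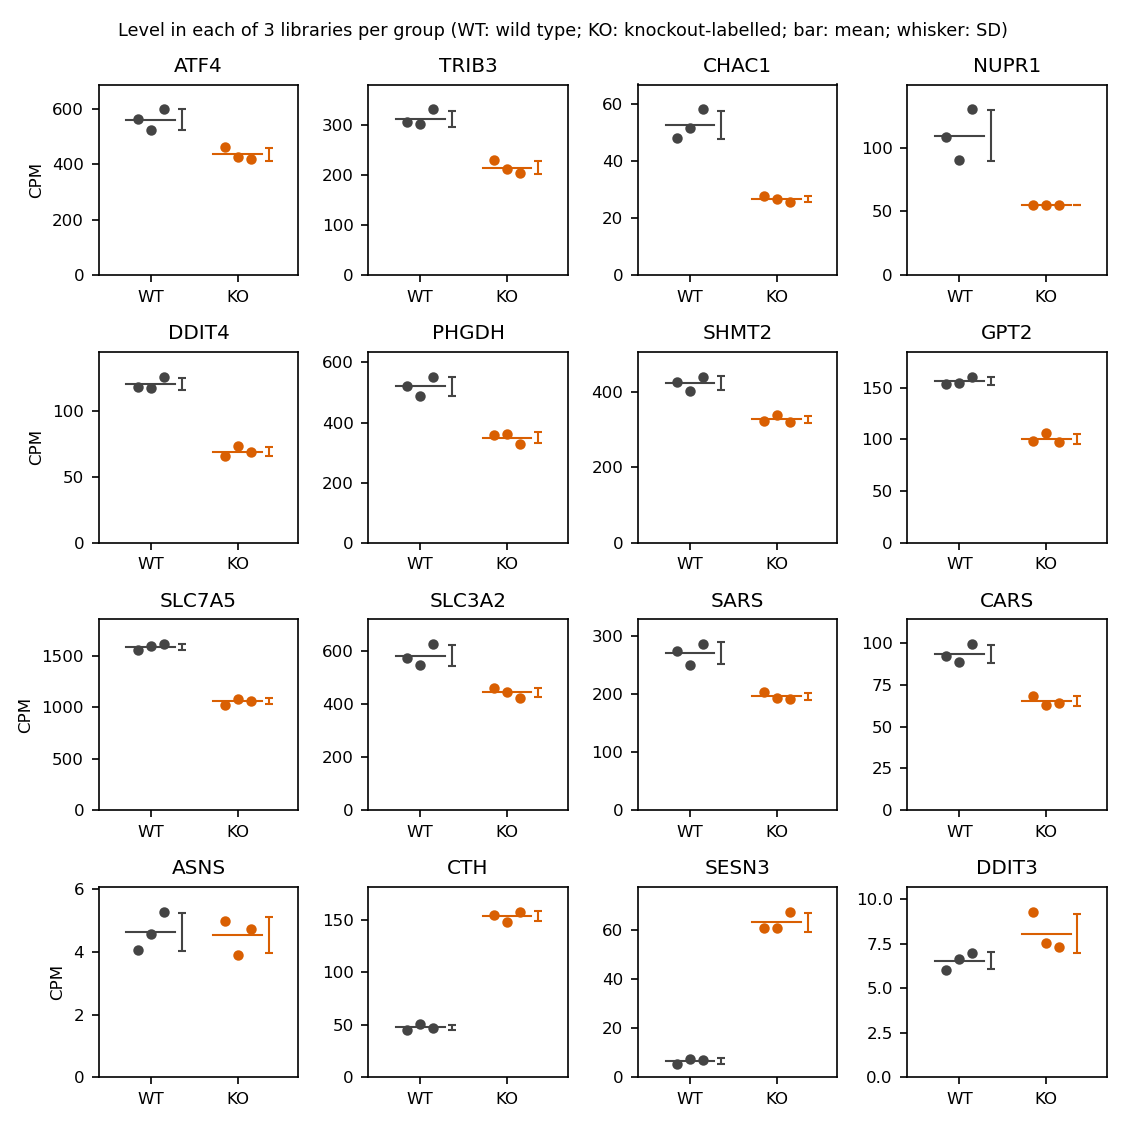
Each panel shows 1 gene's level in CPM in each of 3 wild-type (WT) and 3 knockout-labelled (KO) libraries, with the mean as a bar and the SD as a whisker; every vertical axis starts at 0. In 12 panels the knockout-labelled points lie below the wild-type points, in ASNS they lie among them, and in CTH, SESN3 and DDIT3 they lie above.

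Of the 11 enzymes, 7 were lower, CTH was higher and 3 did not pass (all genes tested: 12.4% lower, 12.0% higher). In the route from glycolysis to serine and one-carbon units, 5 of 5 members were lower, PSPH only marginally. MTHFD1L, a one-carbon enzyme outside the member list, was not called (log2 fold change -0.10, SE 0.06, edgeR adjusted p = 0.222). PHGDH, which commits a glycolytic intermediate to serine synthesis, had 520.2, 489 and 552 CPM in wild type and 357, 363 and 330.01 CPM under the knockout label. Its groups did not overlap and the mean fell by 32.8% (log2 fold change -0.57, SE 0.06, edgeR adjusted p = 2.66e-08).

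PSAT1, the aminotransferase that follows, had 405, 395 and 419 CPM in wild type against 349, 329 and 337 CPM in the libraries labelled knockout (log2 fold change -0.26, SE 0.06, edgeR adjusted p = 6.85e-04). PSPH, the phosphatase that completes serine, had 52.5, 49.7 and 53.9 CPM in the wild-type libraries and 50.7, 42.8 and 40.2 CPM in those labelled knockout. The highest knockout-labelled value of PSPH lay among the wild-type values, and its call was marginal (log2 fold change -0.23, SE 0.08, edgeR adjusted p = 0.0454). It was lost under 10 of 16 other settings, among them DESeq2 (adjusted p = 0.0685) and leaving out wild-type library 1 or 3 or knockout-labelled library 2 or 3 (highest adjusted p = 0.260).

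SHMT2, the mitochondrial enzyme that splits serine into glycine and a one-carbon unit, had 427, 402 and 440.1 CPM in wild type and 323, 337 and 321 CPM under the knockout label (log2 fold change -0.37, SE 0.06, edgeR adjusted p = 1.22e-05). MTHFD2, the mitochondrial dehydrogenase that uses this one-carbon unit, had 226, 231 and 224 CPM in wild type against 177, 167 and 169 CPM in the libraries labelled knockout (log2 fold change -0.41, SE 0.05, edgeR adjusted p = 1.39e-06). Neither gene's groups overlapped, and the means fell by 22.7% and 24.7%. MTHFD2 shares 1324 exon bases with SLC4A5 on the opposite strand, which had at most 14 counts in any library.

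GPT2, the mitochondrial alanine aminotransferase, fell by 35.5%. Its libraries had 154, 154 and 161 CPM in the wild-type libraries and 98.4, 106 and 97.4 CPM in those labelled knockout (log2 fold change -0.63, SE 0.06, edgeR adjusted p = 2.35e-09). The groups were widely separated.

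The transsulfuration pair, which turns homocysteine into cysteine, split. CTH (ENSG00000116761, chromosome 1, 70411218 to 70439851, plus strand), the second enzyme of that route, had 45.4, 50.5 and 47.01 CPM in wild type and 155, 148 and 158 CPM under the knockout label. All 3 knockout-labelled values were about equal and far above wild type, a 3.22-fold rise of the mean (log2 fold change 1.69, SE 0.06, edgeR adjusted p = 2.14e-17). CBS, the first enzyme, was nearly absent, with 28, 15 and 12 counts in wild type and 6, 5 and 5 under the knockout label (log2 fold change -1.77, SE 0.49, edgeR adjusted p = 0.00893). This call for CBS did not survive leaving out wild-type library 1 (adjusted p = 0.130) or knockout-labelled library 2 (adjusted p = 0.0517). The count is uncertain as well, since the near-identical copy CBSL had 1, 5 and 1 counts in wild type and 0, 4 and 7 under the knockout label.

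ASNS (ENSG00000070669, chromosome 7, 97852118 to 97872542, minus strand), asparagine synthetase and the classic target of the composite element, had 4.05, 4.55 and 5.28 CPM in wild type against 4.98, 3.89 and 4.71 CPM in the libraries labelled knockout. The groups overlapped, and the log2 fold change was -0.04 (SE 0.19, adjusted p = 0.918); its sign turned on leaving out wild-type library 3 (0.062) or knockout-labelled library 2 (0.066). The level may not measure ASNS. In GENCODE release 29, 1683 of its 1752 coding bases (96.1%) lie in exons of the gene AC079781.5 on the same strand, which had 5, 0 and 4 counts in wild type and 7, 12 and 15 in the knockout-labelled libraries. How the counter treated reads that fall in both genes is not given in the sources used here, and the part of this overlap in the low count was not tested.

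The proline enzymes did not pass the test. ALDH18A1, which starts proline synthesis from glutamate, had a log2 fold change of 0.02 (SE 0.06, adjusted p = 0.866), with a sign that turned on leaving out wild-type library 3 (-0.012) or knockout-labelled library 1 (-0.024). PYCR1, which completes it, was at -0.12 (SE 0.06, adjusted p = 0.134) and passed without wild-type library 2 (-0.17, adjusted p = 0.0216). PYCR1 shares 408 exon bases with MYADML2 on the same strand, a gene with at most 10 counts in any library.

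Of the 8 amino acid transporters, 3 were lower, 0 were higher and 5 did not pass (all genes tested: 12.4% lower, 12.0% higher). The pair that fell furthest forms 1 exchanger, LAT1 with its heavy chain, which imports large neutral amino acids such as leucine. SLC7A5 (ENSG00000103257, chromosome 16, 87830023 to 87869488, minus strand), the LAT1 chain and per length the most abundant member at 335 CPM per kilobase in wild type, had 1558, 1596 and 1613 CPM in the wild-type libraries and 1024, 1079.8 and 1064 CPM in those labelled knockout. That is a fall of 33.6% with no overlap (log2 fold change -0.59, SE 0.06, edgeR adjusted p = 7.97e-09). SLC3A2, the heavy chain (4F2hc) shared by several exchangers, had 573, 547 and 625 CPM in wild type and 459, 445 and 423 CPM under the knockout label, a fall of 23.9% (log2 fold change -0.39, SE 0.06, edgeR adjusted p = 1.40e-05).

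SLC1A5, the glutamine transporter ASCT2, fell less. It had 323, 312 and 332 CPM in wild type against 273, 295 and 273 CPM in the libraries labelled knockout (log2 fold change -0.20, SE 0.06, edgeR adjusted p = 0.00990). The groups did not overlap, but the call was lost without knockout-labelled library 1 (adjusted p = 0.0549) or 3 (adjusted p = 0.0602).

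The other transporters did not pass. SLC7A11, the cystine-glutamate exchanger that also needs SLC3A2, had 95.1 ± 10.6 CPM in wild type against 103 ± 9.77 CPM in the libraries labelled knockout (log2 fold change 0.12, SE 0.08, edgeR adjusted p = 0.334). SLC38A2, the starvation-induced glutamine transporter SNAT2, had a log2 fold change of 0.13 (SE 0.06, adjusted p = 0.113) and its relative SLC38A1 of -0.15 (SE 0.06, adjusted p = 0.0647). SLC7A1, a carrier of cationic amino acids, and SLC1A4, a carrier of neutral ones, were at 0.06 (SE 0.06, adjusted p = 0.548) and 0.09 (SE 0.07, adjusted p = 0.443). Calls appeared when single libraries were left out: SLC7A11 (0.20, adjusted p = 0.0232) and SLC38A2 (0.16, adjusted p = 0.0327) were higher without wild-type library 2, and SLC38A1 lower (-0.19, adjusted p = 0.0303) without wild-type library 3.

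Secreted and surface products of the programme were lower where they could be tested. VLDLR, a lipoprotein receptor that ATF4 induces, had 10.3, 13.1 and 11.9 CPM in the wild-type libraries and 6.85, 7.42 and 6.14 CPM in those labelled knockout (log2 fold change -0.79, SE 0.14, edgeR adjusted p = 7.66e-05). STC2, a secreted glycoprotein induced by ER stress, had 105, 103 and 114 CPM in wild type and 85.6, 85.6 and 89.0 CPM under the knockout label (log2 fold change -0.31, SE 0.06, edgeR adjusted p = 4.71e-04). In both genes every knockout-labelled library lay below every wild-type one. FGF21, a stress hormone, had 11, 5 and 7 counts in wild type and 2, 0 and 0 counts in the knockout-labelled libraries and did not pass the filter. The ratio of the summed counts, 2 against 23 and corrected for library size, was 0.0874 (95% exact interval 0.00998 to 0.354, which covers counting error only).

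Of the 13 cytosolic synthetases, 7 were lower, 0 were higher and 6 did not pass. Their median log2 fold change was -0.22, 12 of 13 estimates were below 0, and in 9 of them every knockout-labelled library lay below every wild-type one. Among all genes tested, 12.4% were called lower and 49.6% of estimates were below 0. In 18.6% of all genes every knockout-labelled library lay below every wild-type one. The summed level of the 13 synthetases fell by 11.9%, from 3559 ± 49.4 to 3135 ± 81.9 CPM (SD, n = 3 each). The change thus differed from gene to gene, from -0.52 for CARS to 0.08 for VARS.

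The cysteine enzyme CARS had 92.2, 88.7 and 99.5 CPM in wild type against 68.5, 62.8 and 64.3 CPM in the libraries labelled knockout, a fall of 30.3% (log2 fold change -0.52, SE 0.07, edgeR adjusted p = 7.83e-07). The serine enzyme SARS had 276, 250.05 and 287 CPM in the wild-type libraries and 204, 194 and 191 CPM in those labelled knockout, a fall of 27.5% (log2 fold change -0.46, SE 0.06, edgeR adjusted p = 7.13e-07). For alanine, AARS had 406, 389 and 406 CPM in wild type and 301, 306 and 293 CPM under the knockout label (log2 fold change -0.42, SE 0.05, edgeR adjusted p = 1.29e-06). These were the 3 largest falls among the synthetases, and the groups did not overlap in any of them.

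Glycine, leucine and methionine enzymes followed. GARS had 331, 321 and 334 CPM in wild type against 276, 268 and 255 CPM in the libraries labelled knockout (log2 fold change -0.30, SE 0.06, edgeR adjusted p = 1.38e-04). LARS had 158, 158 and 154 CPM in the wild-type libraries and 137, 125 and 128 CPM in those labelled knockout (log2 fold change -0.27, SE 0.06, edgeR adjusted p = 7.31e-04). MARS, whose promoter carries the element at its start, had 174, 174 and 171 CPM in wild type and 143, 147 and 144 CPM under the knockout label (log2 fold change -0.26, SE 0.05, edgeR adjusted p = 6.66e-04). In all 3 genes the lowest wild-type library lay above the highest knockout-labelled one.

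The tyrosine enzyme YARS had 253, 230.4 and 249.3 CPM in wild type against 212, 214 and 205 CPM in the libraries labelled knockout (log2 fold change -0.22, SE 0.06, edgeR adjusted p = 0.00503). Its groups did not overlap, but YARS was no longer called once wild-type library 1 was left out (adjusted p = 0.0527). YARS shares 396 exon bases with S100PBP on the opposite strand.

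The remaining 6 synthetases did not pass. NARS, for asparagine and the most abundant synthetase per length at 92.7 CPM per kilobase, had 384, 382 and 371 CPM in the wild-type libraries and 384, 345 and 343 CPM in those labelled knockout, and the groups overlapped (log2 fold change -0.08, SE 0.06, edgeR adjusted p = 0.319). TARS, for threonine, had a log2 fold change of -0.13 (SE 0.06, adjusted p = 0.0855) and passed without wild-type library 2 (-0.15, adjusted p = 0.0491). WARS, for tryptophan, stood at -0.13 (SE 0.06, adjusted p = 0.105), and EPRS, for glutamate and proline, at -0.09 (SE 0.06, adjusted p = 0.257). IARS, for isoleucine, stood at -0.03 (SE 0.06, adjusted p = 0.764) and VARS, for valine, at 0.08 (SE 0.06, adjusted p = 0.314). The 3 branched-chain enzymes therefore differed in call, LARS being lower and IARS and VARS not called; the difference between them was not tested.

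XPOT, which carries tRNA out of the nucleus, had 178, 188 and 174 CPM in wild type and 174, 158 and 169 CPM under the knockout label. The groups nearly touched, with the highest knockout-labelled value just under the lowest wild-type value, and it did not pass (log2 fold change -0.11, SE 0.06, edgeR adjusted p = 0.188).

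Reads of opposite-strand neighbours could enter several other members. VLDLR shares 738 exon bases with VLDLR-AS1, SLC1A5 780 with AC008622.2, SHMT2 427 with AC137834.2 and SLC7A11 865 with SLC7A11-AS1, genes with at most 10, 2, 3 and 50 counts in any library. GARS shares 99 exon bases with GARS-DT (191 to 296 counts) and WARS 287 with WDR25 (172 to 279 counts).

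**Figure D3:**
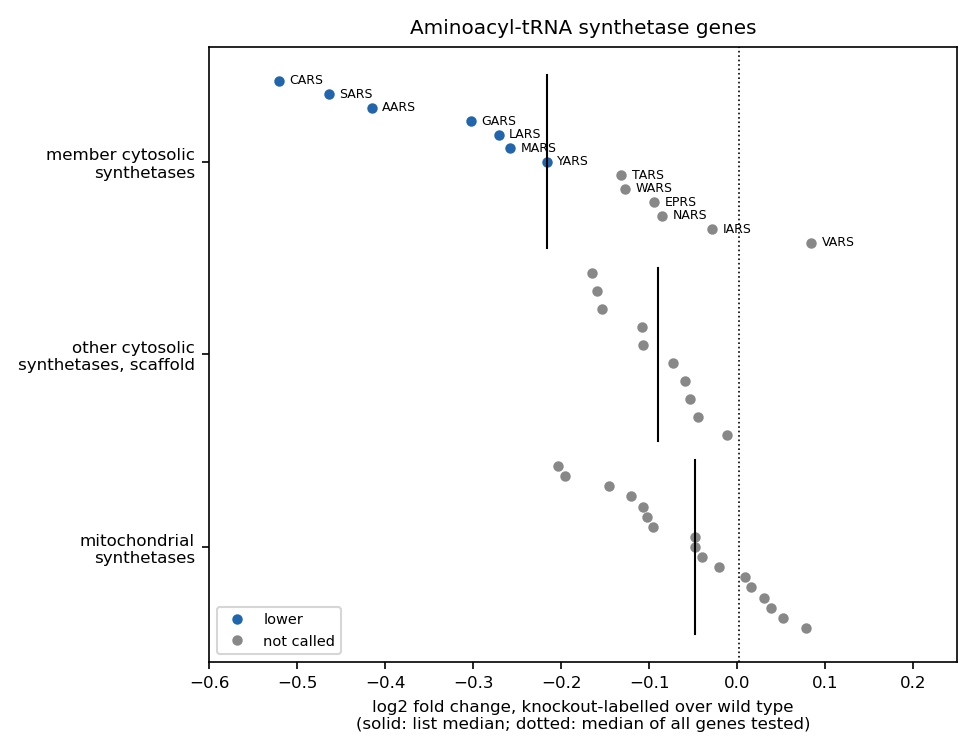
The horizontal axis gives the log2 fold change of knockout-labelled over wild type for 13 member synthetases, 10 other cytosolic synthetase and scaffold genes and 17 mitochondrial synthetases, stacked in 3 rows; solid lines are list medians and the dotted line the median of all genes tested. Lower calls occur in the top row alone, where CARS, SARS and AARS lie furthest left.

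Synthetases outside the member list were set beside them. The 10 other cytosolic genes (7 synthetase chains and 3 scaffold proteins of the multisynthetase complex) had 0 calls by edgeR, 0 by DESeq2 and 0 by limma voom. In edgeR 2 had an unadjusted p below 0.05, and 2 were called lower by edgeR without wild-type library 2. Their median log2 fold change was -0.09 and all 10 estimates were below 0. The most abundant of them, QARS, for glutamine, was at -0.06 (SE 0.05, adjusted p = 0.486). The 17 mitochondrial synthetases, which charge tRNAs inside the organelle, also had 0 calls by these 3 tools; in edgeR 1 had an unadjusted p below 0.05 and 1 was called without wild-type library 2. Their median was -0.05, and the most abundant, IARS2, was at -0.02 (SE 0.05, adjusted p = 0.825), with a sign that turned under total-count scaling (0.0038). Since the difference between lists was not tested, these counts and medians describe each list on its own.

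Levels per length were set beside these changes. In wild type SLC7A5 led at 335 CPM per kilobase, followed by ATF4 at 223, PSAT1 at 186, EIF4EBP1 at 136 and SLC3A2 at 112. All 5 of these were lower in the knockout-labelled libraries, against 12.4% of all genes tested. Next came SLC1A5 at 96.7, NARS at 92.7 and TRIB3 at 91.1 CPM per kilobase, of which NARS was not called. The member synthetases ranged from 9.31 (CARS) to 92.7 CPM per kilobase (NARS). At the low end stood VLDLR at 1.26, ASNS at 1.04, SESN3 at 0.638 and CBS at 0.158 CPM per kilobase.

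**Figure D4:**
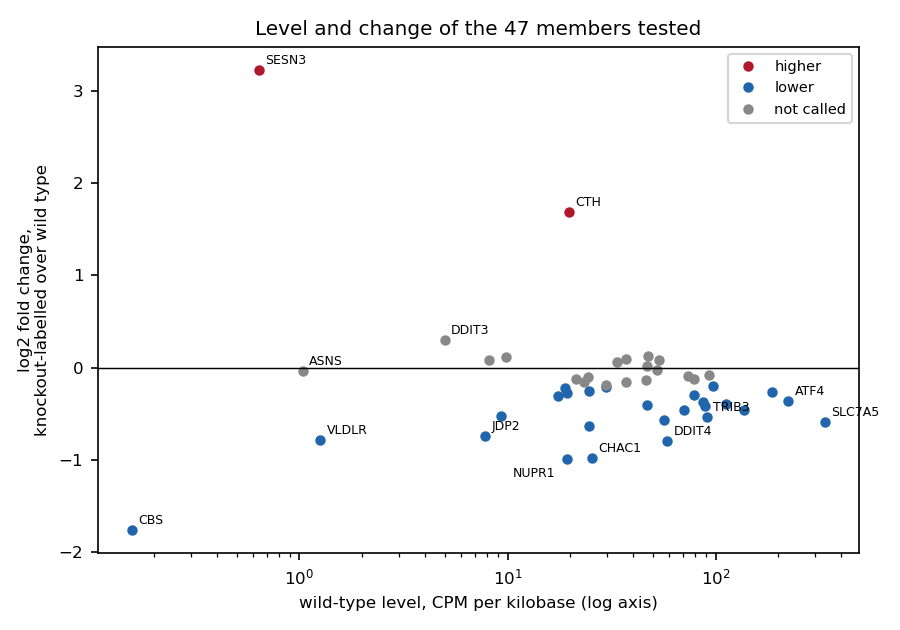
The wild-type level in CPM per kilobase (log axis) is plotted against the log2 fold change of knockout-labelled over wild type for the 47 members tested, coloured by call. Lower calls occur from SLC7A5 at 335 down to CBS at 0.158 CPM per kilobase, and SESN3 combines a low wild-type level with a log2 fold change of 3.23.

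Of 15 genes around eIF2 (its kinases and their regulators GCN1 and IMPACT, the eIF2 and eIF2B subunits, and the phosphatase subunit PPP1R15B), 1 was lower and 1 was higher, or 13.3% called against 24.3% of all genes tested, with a median log2 fold change of -0.01. Both called genes encode subunits of eIF2: EIF2S2, the beta subunit, at -0.19 (SE 0.06, adjusted p = 0.0201), and EIF2S3, the gamma subunit, at 0.21 (SE 0.06, adjusted p = 0.00897). Neither call held throughout. That of EIF2S2 was lost without wild-type library 1 or 3 or knockout-labelled library 1 or 3 (highest adjusted p = 0.120), and that of EIF2S3 on leaving out wild-type library 3 or knockout-labelled library 1 (highest adjusted p = 0.0649). Phosphorylation of eIF2, which sets ATF4 translation, is not visible in RNA counts.

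Further known ATF4 targets outside the member list were counted in the same fit. Of 17 genes 15 were tested, 6 were lower (40%) and 1 was higher (6.67%), against 12.4% and 12.0% of all genes tested. The list's median log2 fold change was -0.10. FAM129A, a stress-induced protein also called NIBAN1, had 40.9, 39.7 and 39.0 CPM in wild type against 9.89, 8.08 and 11.7 CPM in the libraries labelled knockout (log2 fold change -2.02, SE 0.11, edgeR adjusted p = 3.43e-14). ADM2, a secreted peptide of the calcitonin family, had 21.4, 16.9 and 22.5 CPM in the wild-type libraries and 7.82, 7.57 and 7.75 CPM in those labelled knockout (log2 fold change -1.39, SE 0.12, edgeR adjusted p = 9.64e-10). BCAT1, the cytosolic aminotransferase of branched-chain amino acids, had 202, 203 and 182 CPM in wild type and 151, 131 and 151 CPM under the knockout label (log2 fold change -0.44, SE 0.06, edgeR adjusted p = 6.30e-06). None of these 3 overlapped between groups. KLHL24, the target called higher, was chosen after its values were seen and was at 0.44 (SE 0.09, adjusted p = 3.35e-04).

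Genes of the other arms of the unfolded protein response, namely the regulators XBP1, ATF6 and ERN1 with ER chaperones and other ER genes under their control, were also counted. Of 14 tested, 3 were lower and 0 were higher, or 21.4% called against 24.3% of all genes tested. The number lower was 6 without wild-type library 2 and 1 without wild-type library 3. The list's median log2 fold change was -0.12. HSP90B1, the ER member of the HSP90 chaperones, was at -0.23 (SE 0.06, adjusted p = 0.00315). PDIA4, a disulfide isomerase, was at -0.20 (SE 0.06, adjusted p = 0.0148) and the transcription factor gene XBP1 at -0.20 (SE 0.06, adjusted p = 0.0209). The PDIA4 call was lost without wild-type library 1 or 3 or knockout-labelled library 2 or 3 (highest adjusted p = 0.106), and the XBP1 call on leaving out wild-type library 3 or knockout-labelled library 2 or 3 (highest adjusted p = 0.111).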

How the data were processed

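The values the authors deposited are raw read counts, as whole numbers for each gene. The submitters' processing notes name HISAT2 2.0.5 and featureCounts 1.5.0-p3; strand setting, annotation and the handling of reads in several genes were not given in the sources used here. Those notes list the mouse build mm10, but all 58735 identifiers are human Ensembl ones, and coordinates are those of the deposited table (GRCh38). Gene lengths for levels per kilobase are the deposited ones, equal to the union of GENCODE 29 exons for 48 of 48 members. The 232 of 58967 rows without a gene name held 0.13 to 0.25% of a library's counts and were left out. Columns were assigned through the library name in each description, and groups through the genotype label.

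Differences were tested with edgeR 4.0.16 in R 4.3.3 (quasi-likelihood, TMM, filterByExpr with a minimum count of 10, robust, two-sided), 3 against 3 libraries, with Benjamini-Hochberg adjustment over 15351 genes; the steps were tested on simulated data. CPM values were computed from the counts and TMM library sizes and are given as mean ± SD over 3 libraries. Alternatives were other normalizations and filters, DESeq2 1.42.0, limma voom (limma 3.58.1), no robust estimation, a minimum change of 1.5-fold, protein-coding genes only, a replicate block and each library left out. Python 3.11.15 drew plots and searched promoters.

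The members and lists were chosen with earlier results of these data known. All 48 members are counted; ATF4, DDIT3, ASNS, CHAC1, TRIB3, called members and the most abundant member per length of each role are given with every library (at most 10 per role), and from each other list up to 3 called genes by smallest p or the most abundant. Every pair of libraries differed by more than sampling noise. Members without a RefSeq promoter at hand are LARS, SLC7A11, PSPH, YARS, PYCR1, GPT2, EIF4EBP1, NUPR1, SHMT2 and VARS.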

Additional observations from a re-analysis of the deposited data

How the results depend on the processing

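Of the 28 members called, 24 kept their call under all 16 alternatives other than the minimum change; PSPH, CBS, SLC1A5 and YARS lost it under at least 1, and none of the 28 changed direction. CBS was not tested with the filter of at least 1 CPM in 3 libraries, which kept 46 members. Of the members tested, another 7 were called under at least 1 alternative (CEBPB, CEBPG, PYCR1, SLC7A11, SLC38A1, SLC38A2 and TARS). FGF21, which the main filter removed, was called lower with no filter on low counts. The members' median log2 fold change ranged from -0.29 to -0.20. A test asking for more than a 1.5-fold minimum change called 418 genes lower and 377 higher, with 3 members lower and 2 higher and 2 genes of the other pathway lists lower and 0 higher; the smaller counts follow from the stricter test. Leaving out 1 library at a time gave 1376 to 2401 genes lower and 1329 to 2189 higher, 23 to 29 members lower and 2 to 4 higher (4 without wild-type library 2), and in the other lists 7 to 15 genes lower and 1 to 2 higher (1 without either wild-type library 3 or knockout-labelled library 1). Library numbers did not pair the samples: same-numbered libraries correlated at -0.15 to 0.03 in their deviations from group means, and 1 of 3 wild-type and 1 of 3 knockout-labelled libraries correlated best with their own number. With the replicate block 25 members were lower and 2 higher, and 6 genes of the other lists were lower; the cause of that change was not tested. Among genes named, the block ended the calls of PSPH (adjusted p = 0.0761), EIF2S2 (0.0722), PDIA4 (0.0611) and XBP1 (0.0612) and made FXYD3 pass as higher (0.0472). FXYD3 also passed with upper quartile factors (0.0442), with no filter on low counts (0.0479) and with protein-coding genes only (0.0450). Estimates near 0 changed sign: ASNS to 0.062 without wild-type library 3 and 0.066 without knockout-labelled library 2 (range -0.13 to 0.066 on leaving out each library), ALDH18A1 to -0.012 without wild-type library 3 and -0.024 without knockout-labelled library 1 (range -0.024 to 0.043), and IARS2 to 0.0038 with total counts only. Depth limits precision most for CBS (SE 0.49), ASNS (SE 0.19) and DDIT3 (SE 0.15), and FGF21 had too few counts to pass the main filter.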

Other observations

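Some close relatives of members moved the other way. These families were picked after their values were seen, and no family was tested as a whole. SLC3A2 serves as heavy chain for several light chains, and while SLC7A5 fell, 3 others rose: SLC7A7 from 18.2 ± 1.69 to 37.1 ± 0.925 CPM (log2 fold change 1.03, edgeR adjusted p = 6.56e-10), SLC7A8, the LAT2 chain, from 36.4 ± 1.996 to 48.1 ± 2.54 CPM (0.40, adjusted p = 2.72e-04) and SLC7A6 from 29.7 ± 2.67 to 39.0 ± 5.29 CPM (0.39, adjusted p = 0.00304). The rise of SESN3 was shared by SESN1, from 20.3 ± 1.36 to 34.7 ± 1.43 CPM (0.78, adjusted p = 8.65e-08), whereas SESN2, the sestrin best known as an ATF4 target, was at -0.14 (adjusted p = 0.212).

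Among the Tribbles pseudokinases TRIB3 fell, but TRIB2 rose from 8.40 ± 1.43 to 25.8 ± 0.638 CPM (1.62, adjusted p = 1.32e-11) and TRIB1 by 0.54 on the log2 scale (adjusted p = 1.20e-07). MTHFD2L, the mitochondrial paralog of MTHFD2, rose from 36.7 ± 1.57 to 53.5 ± 2.998 CPM (0.54, adjusted p = 3.52e-06). The proline enzyme PYCR3 was slightly higher (0.20, adjusted p = 0.0335), and the relatives of EIF4EBP1 did not pass, with EIF4EBP2 at 0.03 (adjusted p = 0.764) and EIF4EBP3 at -0.50 (adjusted p = 0.300).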
